A study of Homo sapiens with 18 samples.

Results

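The nucleotides described here are the immediate neighbours of the known 2′-O-methylated positions of human 18S rRNA, the RNA of the small ribosomal subunit. A position was taken when it lay 1 to 5 nt from any of the 41 listed sites, was not itself a listed site and was covered by reads, and each primer set was kept apart. This gave 390 measurements at 333 distinct positions, of 2137 measurements at 1816 covered positions in all, and 57 of the flanking positions were read by a pair of primer sets. The choice used position only, so the reactivities are not fixed by it. A total of 62 flanking measurements lay within 5 nt of more than 1 site, and the members therefore share sequence context with each other.

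The cells were MDA-MB-231, an established human breast cancer line, in 3 forms: a scrambled control (SCR), and the lines labelled FBL1 knockdown 1 and FBL2 knockdown 1. They are read here as fibrillarin knockdowns from the title of the study; the labels neither spell the name out nor say how the knockdown was made, and the amount of fibrillarin was not measured in these data. Each line was exposed for 15 min at 37 °C either to 2A3, a SHAPE reagent that acylates the 2′-hydroxyl of flexible nucleotides, or to its solvent DMSO, and 18S rRNA was read by nanopore sequencing of amplicons from 3 primer sets. This made 18 libraries, 1 for each line, reagent and primer set, so no replicate of a condition exists and no p-value is given. The study design mentions cells seeded in duplicate wells, and the sources used here do not say whether those were pooled. Both knockdowns are compared with the same SCR libraries, so their changes are not independent of each other.

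Fibrillarin is the methyltransferase of the box C/D ribonucleoproteins, in which a small nucleolar RNA pairs with the stretch of rRNA around the target and places the methyl group on 1 nucleotide within it. A 2′-O-methyl group occupies the hydroxyl that 2A3 would acylate. The neighbours on either side keep a free 2′-hydroxyl and can react according to how flexible they are. Their signal is taken here as a readout of the local structure around a site. A direct effect of the methyl group on the events counted at its neighbours was not tested.

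The flanks on which the results turn are shown as the reference bases of the deposited files, 5′ to 3′, with every listed methylated site in capitals and the flanking nucleotides in lower case. Am99, Um354, Cm797, Um799 and Gm867 had the highest flank signal in SCR, Gm683 and Am1031 had flanking nucleotides named below, and Cm1703 and Um1804 are shown as flanks of low signal from primer set 1.
Am99: ggcucAuuaaa
Um354: acgucUgcccu
Gm683: uaguuGgaucu
Cm797 and Um799: cgaagCgUuuacu
Gm867: auaauGgaaua
Am1031: caagaAcgaaa
Cm1703: caccgCccguc
Um1804: gaacuUgacua
The methylated nucleotide stands in the middle of each window, except in the joint window of Cm797 and Um799, where G798 lies between the sites. In 18S numbering the window of Am99 runs from position 94 to 104, that of Um354 from 349 to 359, that of Gm683 from 678 to 688, the joint window of Cm797 and Um799 from 792 to 804, and that of Gm867 from 862 to 872.

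Primer set 1 covered positions 1155 to 1840 and held 111 flanking measurements, primer set 2 covered 614 to 1273 and held 77, and primer set 3 covered 25 to 815 and held 202. Between 103348 and 644732 reads covered each flanking measurement in each library. Reactivity is the share of reads with an event at the position, given in steps of 0.1%, and signal means the 2A3 minus the DMSO reactivity of the same line and primer set. A value listed at 0 lies under 0.05%, since the deposited values are rounded. The errors given after ± are the counting errors in the deposited files; the amplicon reads carry no molecular identifiers and may be copies of one another, so these errors cover counting only.

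Flanking nucleotides were seldom reactive. In SCR 12 of 390 flanking measurements, or 3.08%, had a signal of at least 1% of reads, with an exact (Clopper-Pearson) 95% binomial interval of 1.60% to 5.31% that treats positions as independent, which they are not. Among 1420 measurements more than 10 nt from every site, weighted to the flanks' mix of base and primer set, the share was 13.1%, a difference of -10.04 points for the flanks. In FBL1 the shares were 6.67% in the flanks and 14.6% in the distant positions, and in FBL2 they were 4.62% and 14.1%. Over the 3 primer sets together the flanks were thus the lower of the pair in all 3 lines, which did not hold in primer set 2 alone. Distant positions without the weighting stood at 10.6% in SCR. Secondary structure and the variable expansion segments of 18S were not matched, and their part in this difference was not tested.

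The means followed the same order. Mean signal in the flanks of SCR, FBL1 and FBL2 was 0.231%, 0.382% and 0.306% of reads, against 0.559%, 0.756% and 0.647% in the matched distant positions. The medians were 0.1% in the flanks and in the distant positions alike, so the difference lay in the upper part of the distribution.

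The 3 primer sets did not contribute equally. In primer set 1 none of 111 flanking measurements reached 1% in SCR, against 6.71% of its matched distant positions. In primer set 3 the flanks reached 1% at 5 of 202, or 2.48%, against 18.4%. In primer set 2 they did so at 7 of 77, or 9.09%, against 8.39%, which is no deficit. In the knockdowns the flanks of primer set 2 stood above the distant positions, at 16.9% against 9.20% in FBL1 and 13.0% against 8.61% in FBL2. Without primer set 3 the deficit over the other primer sets was 3.67 points. The flank of Gm867 held 3 of the 7 reactive measurements of primer set 2, and without it 4 of 67, or 5.97%, reached 1% in SCR against 8.45%. Without that flank FBL1 still had the higher share in the flanks, 11.9% against 9.23%, and FBL2 had 7.46% against 8.66%.

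All 4 bases were less often reactive in the flanks than far from the sites. Among flanking U the share in SCR was 5.49% against 23.2% in distant U. No flanking C out of 85 measurements reached 1%, against 13.6% of distant C. Flanking G stood at 2.91% against 9.45%, and flanking A at 3.60% against 7.89%. The mean of A went the other way, with 0.388% in the flanks and 0.30% in the distant positions, and that mean contains A102 and A103 beside Am99, the highest flanking nucleotides in the molecule.

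Positions were then aligned by their distance from the site, with those that flank more than 1 site counted at each offset. On the 5′ side the SCR mean from offset -5 to -1 was 0.145%, 0.134%, 0.085%, 0.143% and 0.150%. The sites themselves had a mean of 0.081%. On the 3′ side the means from +1 to +5 were 0.315%, 0.079%, 0.643%, 0.383% and 0.225%. By mean, the 3′ profile was uneven, with the nucleotide after the site and the third one after it above their neighbours at +2. The SCR medians were 0.1% at +1 and 0 at both +2 and +3. The mean at +3 contains A102, with a signal of 17.8%. U800 enters both means, at +1 of Um799 and again at +3 of Cm797, each time from primer sets 2 and 3.

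**Figure D1:**
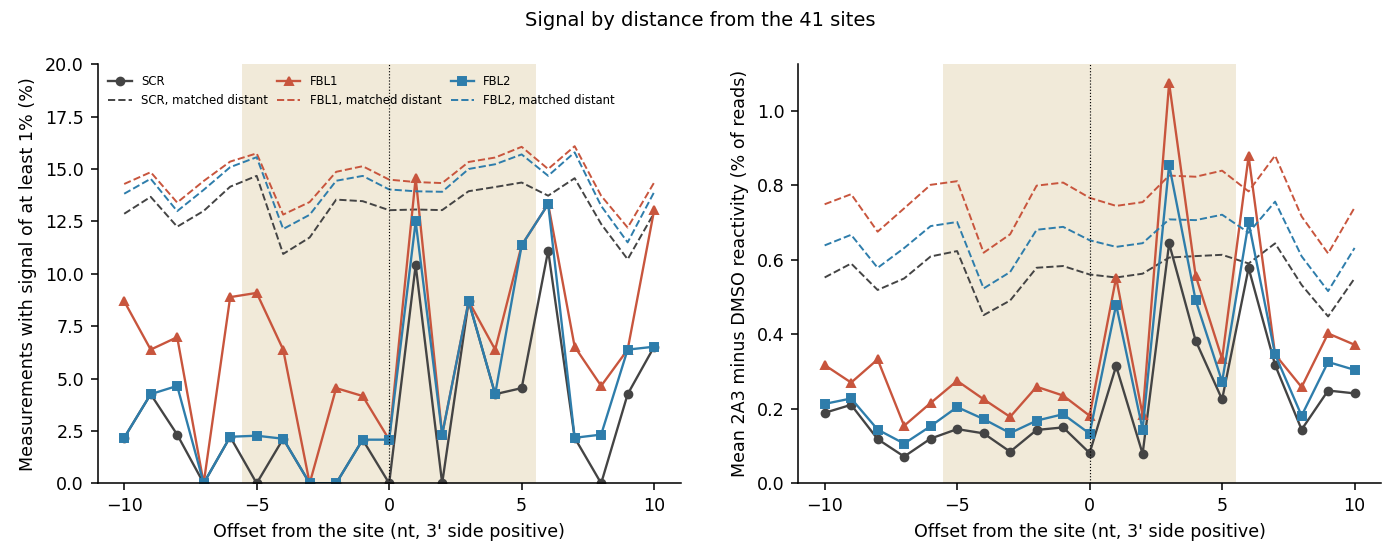
Share of measurements with at least 1% signal (left, % of measurements) and mean 2A3 minus DMSO reactivity (right, % of reads) by offset from the 41 sites, for SCR, FBL1 and FBL2, 1 library pair per line and primer set with no error bars. Shading marks the flank of 1 to 5 nt and dashed lines give distant positions matched to each offset on base and primer set. On the 5′ side of the flank the SCR share stays at or under 2.13%. At +1 it reaches 10.4%, or 5 of 48: U800 from primer sets 2 and 3, and G355, G798 and G868.

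Counted by side, with 9 measurements equally near to a site on each side left out, 1 of 191 measurements 5′ of a site reached 1% in SCR and 10 of 190 measurements 3′ of a site did. These are 0.524% and 5.26%, against 12.9% and 13.4% of distant positions matched to each side. The mean was 0.118% on the 5′ side and 0.342% on the 3′ side. In FBL1 8 and 16 measurements reached 1% on the 5′ and the 3′ side, and in FBL2 2 and 15 did.

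This asymmetry rested on a few sites. The 3′ mean was the higher one at 16 of 41 sites, the 5′ mean at 18, and they were equal at 7. Without the flanks of Am99, Um354, Cm797, Um799 and Gm867, a set named after its values were seen, the 3′ side held a mean of 0.094% and a share of 0.606% in SCR. At each of these sites the 3′ mean was the higher one, so a lower 3′ value followed from the choice. The 5′ side was not recomputed without them.

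The deficit was smaller just outside the flank. Measurements 6 to 10 nt from the nearest site had at least 1% signal in 5.73% of cases in SCR, against 12.4% of matched distant positions. Offset +6, just outside the flank, had a mean of 0.578% and 5 reactive measurements, and offset -6 had a mean of 0.120%. The mean at +6 contains A360 with 6.8% and U689, which enters from primer sets 2 and 3 with 5.6% and 4.6%. From -10 to -6 the share at 1% in SCR was between 0 and 4.26%, so the 5′ side stayed low there.

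Averaged over primer sets, the flank of 35 of the 41 sites held no nucleotide at 1% in SCR, and 6 sites had at least 1. The mean over the flank of a site ran from 0.02% to 2.94% with a median over sites of 0.089%, and 23 sites stood under 0.1%. The median site mean was 0.171% in FBL1 and 0.13% in FBL2. Am99, Gm867, Um799, Cm797 and Um354 were the 5 sites at 0.5% or more.

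**Figure D2:**
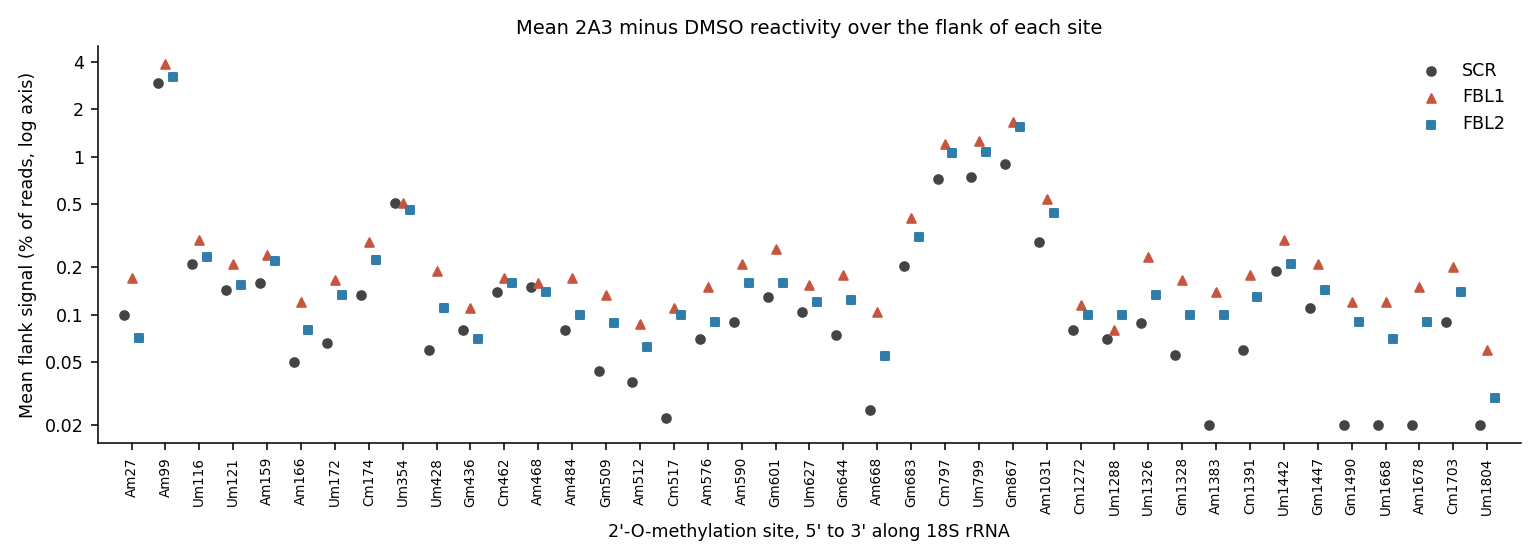
Mean 2A3 minus DMSO reactivity over the flank of each of the 41 sites (% of reads, log axis) in SCR, FBL1 and FBL2, averaged over primer sets where more than 1 reads the site, with 1 library pair per line and primer set and no error bars. Am99 has the highest flank at 2.94% in SCR, and the knockdown symbols lie above the SCR symbol at 37 sites.

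In the knockdowns most flanks were higher than in SCR before any scaling. The flank mean was higher in both knockdowns at 37 of 41 sites and lower in both at none; at Am27, Um354, Gm436 and Am468 it was not higher in both. Single measurements were higher than in SCR at 229 of 390 in FBL1, equal at 132 and lower at 29, and in FBL2 these numbers were 167, 182 and 41. Distant positions did likewise, since 53.5% of them after matching were higher in FBL1 against 58.7% of the flanks, and 35.7% were higher in FBL2 against 42.8% of the flanks. The mean flank signal of FBL1 was 1.66 times and that of FBL2 1.32 times that of SCR, while the distant positions stood at 1.35 and 1.16 times. Unscaled values above SCR were thus common in flanks and distant positions alike, and no replicate library gives the spread of these ratios.

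To take out such a shift, each library pair was divided by the mean of its own values between the 90th and the 98th percentile, called 1 unit. The unit of SCR came to 0.958% (primer set 1), 1.68% (primer set 2) and 3.00% (primer set 3), so the same change in percent weighs least in primer set 3. The median scaled change of the flanks was 0.024 units in FBL1, against 0.009 units in matched distant positions, and 0 in both groups in FBL2. The difference in FBL1 amounts to less than 1 step of the rounding and became 0 without scaling and with box-plot scaling.

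A measurement was called when both knockdowns differed from SCR in the same direction by at least 0.3 units and by more than 1.96 times the counting error. Over all 2137 measurements this called 41 rises, or 1.92%, and 30 falls, or 1.40%. In the flanks it called 9 rises, or 2.31%, and 1 fall, or 0.256%, against 2.20% and 1.5% of matched distant positions. The share of rises among flanking nucleotides was thus near the background. A signal of at least 0.3 units in SCR was found at 26 of 390 flanking and 196 of 1420 distant measurements, unweighted. Falls numbered 1 in the flanks and 27 in the distant positions. Whether the level in SCR bears on the share of falls was not tested.

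The 9 rises lay at 8 distinct positions around 4 windows, and 5 of them were consecutive nucleotides 3′ of Gm867. The window of Gm867 was read by primer set 2 only, and those of Am99 and Um354 by primer set 3 only. No other amplicon therefore covers the calls in these windows. U678 and U800 were read by primer sets 2 and 3, and U678 was called in primer set 2 alone. By side, 8 rises and the fall were 3′ of a site and 1 rise was 5′ of it. Primer set 2 held 7 of the rises among its 77 flanking measurements, or 9.09%. This stood against 4 of 509 distant ones, unweighted, and 14 of its 660 measurements in all, or 2.12%. The other primer sets went the other way. Primer set 1 held none in its flanks, against 16 of 477 distant ones, or 3.35%, and 2.62% in all. Primer set 3 held 2 of 202, or 0.990%, against 6 of 434 distant ones, or 1.38%, and 1.14% in all. With the flank of Gm867 left out, a choice made after its values were seen, 4 rises were left, and without primer set 2 there were 2. With box-plot scaling, whose units came to 0.162% to 0.575% of reads, the mean change of G868, A870, U871, A102 and U800 in primer set 2 turned negative, and A869 and A872 were no longer called, so 7 of the 9 rises were lost. The call was also lost at A102 with scaling to the 90th percentile, at U678 and U871 with a separate unit for each base, and at U678, G868 and A869 without DMSO subtraction.

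Gm867 lies in a window of A and U apart from G868. On its 5′ side, A862 to U866, the 2A3 reactivity in SCR was between 0.1% and 0.4%, and none of these was called. The next nucleotide 3′ of the site, G868, had 2A3 reactivities of 2.0% ± 0.020, 3.3% and 3.4% in the 3 lines (SCR, FBL1, FBL2), and 0.2% with DMSO in SCR. This is a change of 0.380 units in FBL1 and 0.570 units in FBL2. Both knockdowns lay above the control by more than the counting error, which does not cover the spread between libraries. At G798, for comparison, the SCR signal was 1.3% ± 0.024 in primer set 2 and 0.7% ± 0.037 in primer set 3.

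The following nucleotides also lay higher in both knockdowns than in SCR. A869 read 0.6%, 1.4% and 1.4% with 2A3 in SCR, FBL1 and FBL2, a change of 0.311 and 0.369 units. A870 read 2.2%, 4.0% and 3.4%, a change of 0.563 and 0.435 units. U871, the highest of the window, read 3.3%, 5.3% and 4.8%, a change of 0.508 and 0.523 units, with 0.3%, 0.4% and 0.3% in DMSO. A872 read 0.9%, 2.1% and 1.8%, a change of 0.460 and 0.396 units. In these unscaled values the higher knockdown was FBL1 at A870, U871 and A872, FBL2 at G868, and neither at A869.

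The elevated stretch did not end at the flank. Beyond it, at nucleotides chosen after their values were seen, G873 read 1.8%, 3.0% and 2.6% with 2A3 and was not called, while A875 read 0.8%, 1.9% and 1.7% and was called as a rise. Gm867 itself was called as a rise too. Its 5′ neighbours lay higher in the knockdowns as well, at a lower level: the mean signal of the 5′ side was 0.14%, 0.28% and 0.26% in SCR, FBL1 and FBL2, and that of the 3′ side 1.66%, 3.06% and 2.82%.

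**Figure D3:**
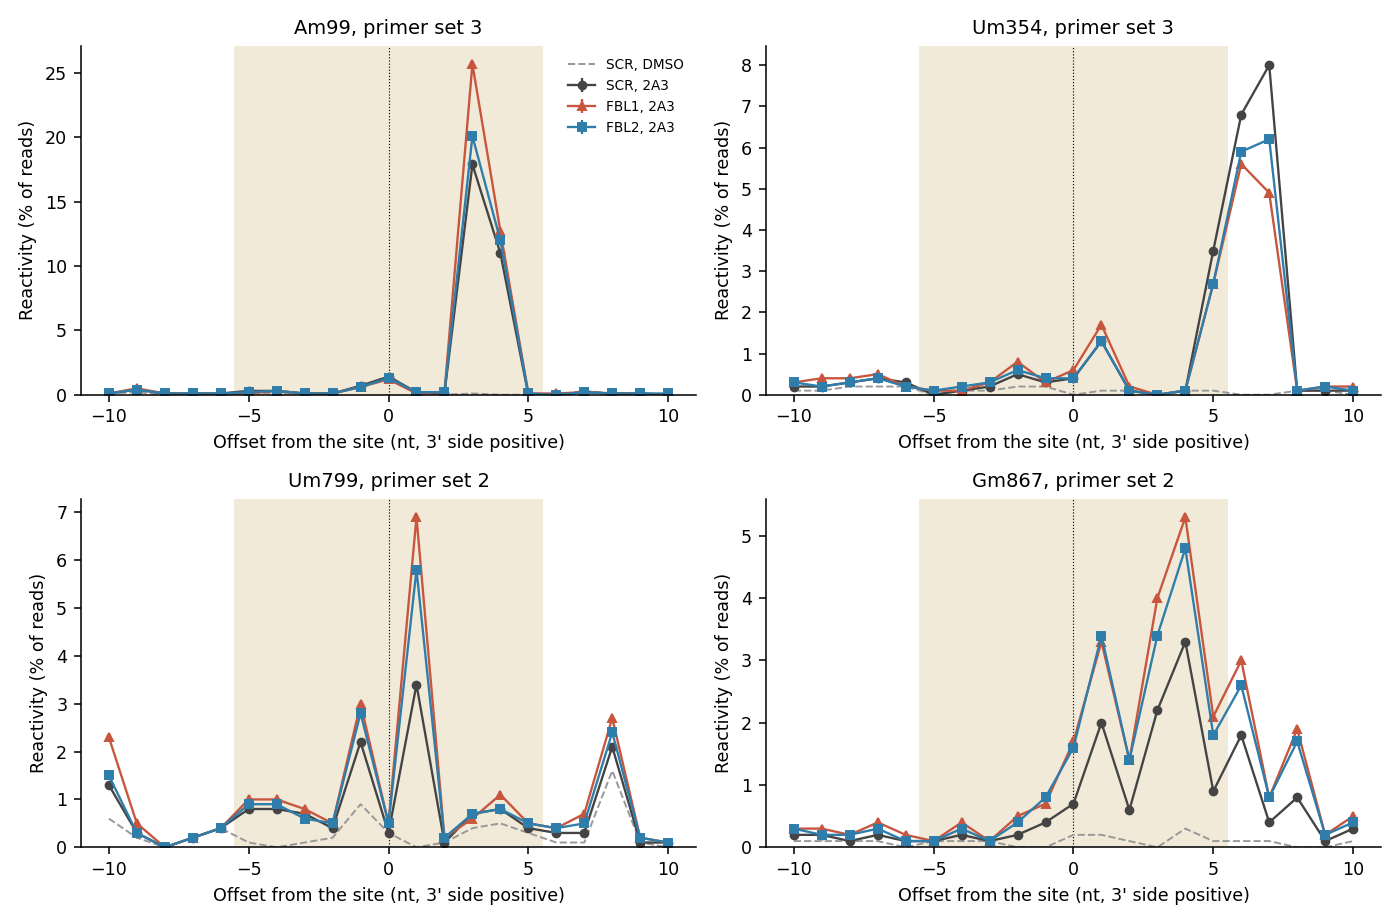
2A3 reactivity (% of reads) from 10 nt before to 10 nt after Am99, Um354, Um799 and Gm867 in SCR, FBL1 and FBL2, with DMSO reactivity of SCR dashed, 1 library per point; bars are counting errors and are mostly smaller than the symbols, and shading marks the flank. The 3′ nucleotides of Gm867 lie higher in both knockdowns, up to 5.3% in FBL1 against 3.3% in SCR, and the peak 3′ of Um354 lies lower.

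Cm797 and Um799 share their flank. U800, next to Um799 on its 3′ side, had the largest change of the flanking nucleotides read by primer set 2. With 2A3 the SCR library gave 3.4% ± 0.026, that of FBL1 6.9% ± 0.038 and that of FBL2 5.8% ± 0.039, and the DMSO libraries gave 0, a change of 1.21 and 0.952 units. Primer set 3, which is a separate amplification of the same position, gave 3.4%, 6.3% and 5.8% and a change of 0.678 and 0.717 units. In primer set 3 U800 lies within the last 20 covered positions, so this measurement dropped out with the stretch ends left out, which left 8 rises. U800 was called in both primer sets, and its signal relative to SCR was 2.03 and 1.85 times in FBL1 and 1.71 times in FBL2.

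G798, between the sites, read 2.2%, 3.0% and 2.8% with 2A3 in primer set 2, while primer set 3 gave 1.8%, 2.6% and 2.0%. Its DMSO reactivity was the highest of the flanks in primer set 2, at 0.9%, 1.0% and 1.0%, and it was not called. A802 did not pass either and changed by -0.132 and -0.127 units in primer set 2. Of the shared flank, U800 alone was called in either primer set.

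Am99 had the highest flanking nucleotides of the molecule on its 3′ side. A102 read 17.9% ± 0.097, 25.7% and 20.1% with 2A3 in SCR, FBL1 and FBL2, with 0.1% in DMSO, a change of 1.43 and 0.445 units. It was called as a rise, although FBL2 lay close to SCR relative to its level, at 1.12 times the signal. The mean of the matched distant positions of primer set 3 stood at 1.13 times SCR in FBL2. In FBL1 A102 stood at 1.44 times and those positions at 1.32 times. With scaling to the 90th percentile A102 changed by 2.31 units in FBL1 and by -0.359 units in FBL2. The neighbour A103 read 11%, 12.7% and 12%, a change of -0.016 units in FBL1 and 0.160 units in FBL2, and was not called. C98, just 5′ of Am99, read 0.7%, 0.6% and 0.6% with 2A3 and 0.6%, 0.6% and 0.9% with DMSO, so little of its reactivity came with the reagent. The mean of the Am99 flank was 2.94%, 3.87% and 3.19%, and without that flank the mean over all flanking measurements of SCR, FBL1 and FBL2 was 0.159%, 0.290% and 0.230%.

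Gm683 held the only rise 5′ of a site. U678, 5 nt before it, read 0.3%, 1.4% and 1.0% with 2A3 in primer set 2, a change of 0.489 and 0.343 units. In primer set 3 it read 0.3%, 1.1% and 0.7%, a change of 0.221 and 0.125 units, which is in the same direction and was not called. Just outside the flank and chosen after its values were seen, U689, 6 nt after Gm683, was called as a rise in both primer sets.

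The single fall lay 3′ of Um354. With 2A3 U359 read 3.5% ± 0.040, 2.7% ± 0.037 and 2.7% ± 0.036 in SCR, FBL1 and FBL2, with 0.1% in DMSO, and changed by -0.386 and -0.305 units. The second of these is just past the threshold, and the call was lost with no scaling, with a separate unit for each base, without DMSO subtraction and with the 20 positions at each end of the covered stretches left out. G355, next to Um354, read 1.3%, 1.7% and 1.3% and was not called. Just beyond the flank, A360 and U361 were called as falls, again chosen after their values were seen, so U359 is the edge of a stretch that was lower in both knockdowns.

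Among the flanking nucleotides that did not pass, the largest mean rises were at A1388, C1701, G1325 and C1026. C1701, 2 nt before Cm1703, read 0.7%, 1.2% and 1.0% with 2A3, a change of 0.281 and 0.237 units. C1026, 5 nt before Am1031, read 1.2%, 2.1% and 1.6%, a change of 0.307 and 0.131 units, and its neighbour A1027 read 1.8%, 2.6% and 2.2%. A1388 and G1325 had 0 in SCR with 2A3 and 0.2% and 0.3% in FBL1, close to the rounding step. The largest falls that did not pass were at G1270 in primer set 2, A802, C98 and C1802. G1270 changed by -0.085 and -0.230 units in primer set 2, while primer set 1 gave 0.143 and -0.008 units for it. C1802, 2 nt before Um1804, changed by -0.044 and -0.113 units.

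By site, the flank of Gm867 had an unscaled mean of 0.900%, 1.67% and 1.54% (SCR, FBL1, FBL2), that of Am99 stood as given above, and that of Um799 went from 0.744% to 1.27% and 1.07%. At the other end, the flank of Um354 had 0.510%, 0.510% and 0.460%, that of Am468 0.150%, 0.160% and 0.140%, and that of Gm436 0.080%, 0.110% and 0.070%. These last 3 flanks differed from SCR by no more than 0.05% in either knockdown.

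Of the 12 flanking measurements with at least 1% signal in SCR, 6 were called as rises and 1 as a fall. Of 151 such distant measurements, 14 were called as rises and 25 as falls. Over all 179 such measurements, 23 were called as rises and 28 as falls. The reactive flanks are few, and 3 of the 6 rises lie in the Gm867 window and a pair of them are the same nucleotide, U800, so the counts are given as a description.

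The positions read by a pair of primer sets show how far separate amplicons gave the same value. At 51 flanking positions read by primer sets 2 and 3, the SCR signals were within 0.1% of each other at 44, and the largest gap was 0.6%. In FBL1 they were so at 35 with a largest gap of 0.6%, and in FBL2 at 40 with a largest gap of 0.9%. The 6 flanking positions read by primer sets 1 and 2, all of low signal, differed by at most 0.2% in each line. Pearson's r over the 51 positions was 0.976, 0.990 and 0.981 for SCR, FBL1 and FBL2, a description that rests on the few high positions and on RNA from the same cells. Primer set 2 called 2 of these positions, primer set 3 called 1, and U800 was the 1 called in both.

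**Figure D4:**
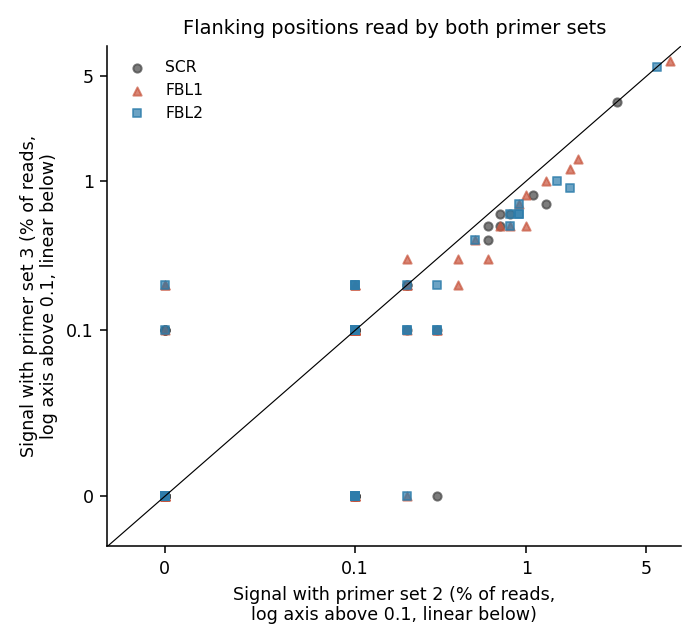
2A3 minus DMSO reactivity (% of reads) of the 51 flanking positions read by primer set 2 (horizontal) and primer set 3 (vertical) in SCR, FBL1 and FBL2; both axes are logarithmic above 0.1% and linear below, the line marks equal values, and symbols of equal value overlap. U800 is the highest position in both primer sets, and most positions sit on the steps between 0 and 0.3%.

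The DMSO background differed between the sites and their flanks when each was taken as a group. In SCR 18 of 48 measurements at the sites, or 37.5%, had a DMSO reactivity of at least 0.3%, and in FBL1 and FBL2 17 of 48 did. In the flanks the numbers were 38, 41 and 42 of 390 in SCR, FBL1 and FBL2, which are 9.74%, 10.5% and 10.8%, against 11.5%, 12.8% and 12.7% of matched distant positions. Thus a raised DMSO reactivity was more frequent at the methylated nucleotides, though most of their measurements lacked it. It was not seen more often in their neighbours than far away. The DMSO reactivity of a site lay above the mean of its own flank at 25, 24 and 26 of 41 sites in SCR, FBL1 and FBL2.

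The mean DMSO reactivity of the flanks was 0.114%, 0.118% and 0.122% for SCR, FBL1 and FBL2. The highest flanking value in SCR was at G518, next to Cm517 on its 3′ side, with 1.2%, 1.2% and 1.1% in DMSO and 1.2%, 1.3% and 1.4% with 2A3. G798 in primer set 3 had 1.1%, 1.2% and 1.1% in DMSO, the same as G518 in both knockdowns. In primer set 1 the highest flanks were G1381, 2 nt before Am1383, and G1451, 4 nt after Gm1447, which had the same DMSO values; G1381 had 0.5%, 0.4% and 0.4% in DMSO and 0.6%, 0.8% and 0.7% with 2A3.

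**Figure D5:**
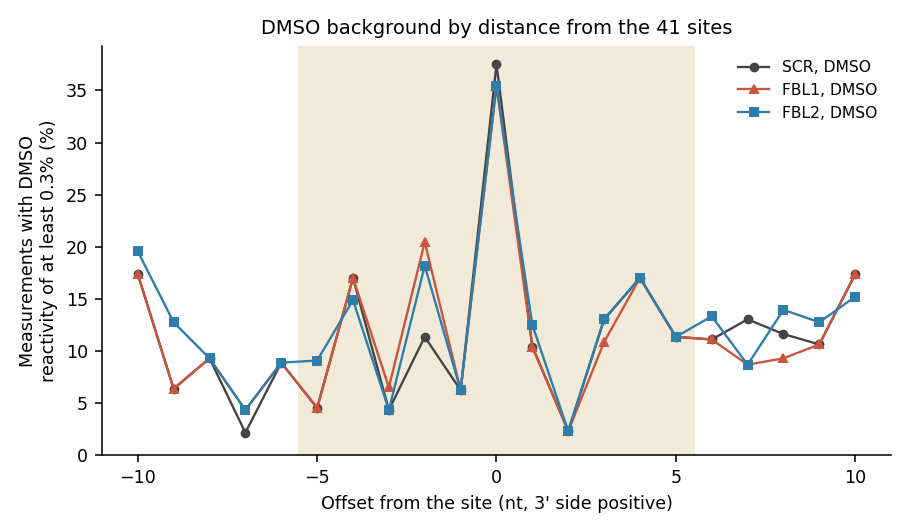
Share of measurements (%) with a DMSO reactivity of at least 0.3% of reads by offset from the 41 sites in SCR, FBL1 and FBL2, 1 library per line and primer set with no error bars; shading marks the flank. The share is 37.5% at the sites in SCR and lies between 2.33% and 17.0% at the flanking offsets of that line.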

How the data were processed

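The authors deposited, per library, the reactivity at each 18S position as a fraction of reads rounded to 3 decimals, the coverage signal in reads, a counting error (unit "other"; equal to the square root of reactivity over coverage) and, in 8 of the 2A3 files, a DMSO-subtracted score. Bowtie2 and SAMtools are named per the submitters' processing notes; the sources used here do not name the reference, the kind of event counted or any pooling of wells. The recomputed 2A3 minus DMSO differences equalled the deposited score within 0.05% of reads at 5751 of 5751 positions. Values are printed as percent of reads. The scaling and the size rule were computed with Python 3.11.15, numpy 2.4.6 and pandas 2.3.3. So were the weights that match distant positions to the flanks on base and primer set. Covered positions with any depth were kept. Coverage of the flanks ran from 103348 to 644732 reads per library.

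The members and lists were chosen with earlier results of these data known. Named nucleotides are those passing the size rule, the 10 with the highest SCR signal, the 4 largest rises and 4 largest falls that did not pass, the highest DMSO value per primer set, and the 3 sites with the largest and the 3 with the lowest change of the flank mean; others are named as chosen afterwards. Alternatives covered scaling, thresholds, DMSO subtraction, depth, flank width, matching and each primer set or knockdown left out.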

Additional observations from a re-analysis of the deposited data

Results flagged for a closer look

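At C622 and A802 both knockdowns lay below SCR in primer set 2 and both above it in primer set 3, and this difference was not tested. C622, 5 nt before Um627, had a mean change of -0.1% of reads with primer set 2 and 0.1% with the other. A802, 3 nt after Um799, changed by -0.2% in primer set 2 and by 0.2% in primer set 3. The mean change had opposite signs between primer sets at 5 more positions, where at least 1 knockdown equalled SCR in a primer set; the widest gap among these was at G1270, with 0.1% in primer set 1 and -0.25% in primer set 2. Each mean change is built from 6 values given in steps of 0.1%, so those of 0.1% and 0.2% lie near the rounding.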

How the results depend on the processing

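The 9 rises became 19 with scaling to the 90th percentile, 43 with box-plot scaling, 3 at a threshold of 0.5 units, 4 with a flank of 1 to 2 nt, 2 without primer set 2 and 4 without the flank of Gm867 (added after seeing the data). The 1 fall became 3 with scaling to the 90th percentile, 34 with box-plot scaling, and 0 with no scaling, per-base units, 0.5 units, no DMSO subtraction, a flank of 1 to 2 nt, the ends left out, or without primer set 3. Box-plot units ran from 0.162% to 0.575% of reads and differed between lines. In primer set 2 they were 0.180%, 0.446% and 0.337% in SCR, FBL1 and FBL2, and the main units were 1.68%, 2.14% and 1.95%. Under box-plot scaling the mean change of 5 called rises turned negative: U800 in primer set 2 (-2.58), G868 (-1.79), A870 (-2.71), U871 (-4.52) and A102 (-4.53 units). A869 and A872 were no longer called there, which made 7 of the 9 rises lost. U800 in primer set 3 was called under all 6 scalings, and it dropped out with the ends left out because it lies near the end of that stretch.

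The FBL1 median difference of 0.0155 units became 0 without scaling or with box-plot scaling, 0.0481 at the 90th percentile, 0.0222 with the ends left out, and 0.0242 without primer set 1 or matched on primer set only; that of FBL2 was 0. The deficit of -10.04 points became -12.7 without primer set 2, -3.67 without primer set 3, -12.3 for positions over 20 nt away, -6.28 for a signal of at least 2% and -11.6 with each position once. The causes of these moves were not tested. No paired analysis was possible because there is 1 library per line, reagent and primer set.

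The limits are 1 library per condition, a rounding step of 0.1%, as large as the median unscaled change of the flanks in FBL1, and counting errors that leave out preparation and culture.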
